A study of Homo sapiens and Mus musculus with 36 samples.

Results

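Kupffer cells are the macrophages that live in the sinusoids of the liver, and 10 genes that mark them or other macrophages were followed in mouse liver after obstruction of the bile duct. The genes were taken as a list from the 18193 genes of the mouse array, and all 10 had a probe set. This list and the related lists below were chosen with earlier results of these data known. Counts and medians set beside those of all genes are therefore descriptions. Clec4f, Cd163, Marco, Cd5l and Timd4 mark resident Kupffer cells, and Cd14, Cd68, Trem2, Gpnmb and Csf1r stood for recruited or activated macrophages. Of this second set, Cd68 and Csf1r are carried by macrophages of every origin, resident ones included.

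Each array was hybridised with liver RNA of 1 mouse of the strain Sv129. In the ligated group (CBDL, n = 6) the common bile duct had been tied 6 weeks earlier. In the sham group (n = 6) the same duct had been exposed in surgery, also 6 weeks earlier, and not tied. No genetic change or drug distinguished the groups, and age and sex were not given in the sources used here. The other 24 arrays of the series, of HepaRG cells, were not used here. The liver was analysed whole, so that fewer cells of a type and less RNA per cell cannot be told apart, nor can more cells and more RNA per cell.

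Resident Kupffer cells derive mainly from precursors seeded before birth and renew themselves in the healthy liver, while circulating monocytes enter in injury and can take on a similar identity. Kupffer cells clear bacteria, dying cells and haemoglobin from portal blood through scavenger receptors. Macrophages of the scarred or fatty liver are known for a lipid handling program that includes Trem2 and Gpnmb. Bile duct ligation is a standard model of cholestatic injury and fibrosis in rodents.

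Livers of a group were alike overall (correlation of 2 arrays across genes 0.981 to 0.9967), and of 11 hepatocyte markers 2 fell, Cyp2e1 (log2 change -0.58) and Serpina1c (-0.26), and 9 did not pass the test used throughout (limma), Alb among them (15.08 in ligated livers and 15.01 in shams). The 18.2% of hepatocyte markers that fell were near the 21.1% of all genes that fell. Markers of other cells set 2 arrays apart. In the liver CBDL 1, 13 neutrophil markers averaged 2.24 log2 units above the sham mean, against 0.34 to 0.54 in the other 5 ligated livers. In sham 2, 14 markers of intestinal epithelium averaged 3.44 above the mean of all shams. For Marco, Timd4 and Csf1r, and for each list whose count changed, results are therefore also given without both arrays, and the part of these cells in the results was not tested.

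Most markers of both sets were higher after ligation. Of the 5 resident markers 3 rose, 1 fell and 1 did not pass the test, and of the 5 recruited or activated markers 4 rose and 1 did not pass (limma, adjusted p under 0.05 over all genes). Over all genes 41.6% passed, 20.5% higher and 21.1% lower, so that a call by itself is common in this comparison. Of the called genes 49.3% were higher, against 63.8% with arrays centred on their medians and 41% with quantile normalization, and under both scalings 7 members were higher and 1 lower. The median log2 change was 0.66 over the resident markers and 0.88 over the others, beside -0.05 over all genes. Over all livers both sets held a marker that rose more than 3-fold, and both held one that did not pass. In the resident set that rise was of Marco alone. Its log2 change was 1.72, and 1.381 without CBDL 1, which is under 3-fold. With any 1 liver left out, the lowest log2 change was 1.719 for Cd68 and 4.645 for Cd14, both above 3-fold. Cd14, the marker with the largest change, had rank 4 among all genes ordered from the largest rise.

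**Figure D1:**
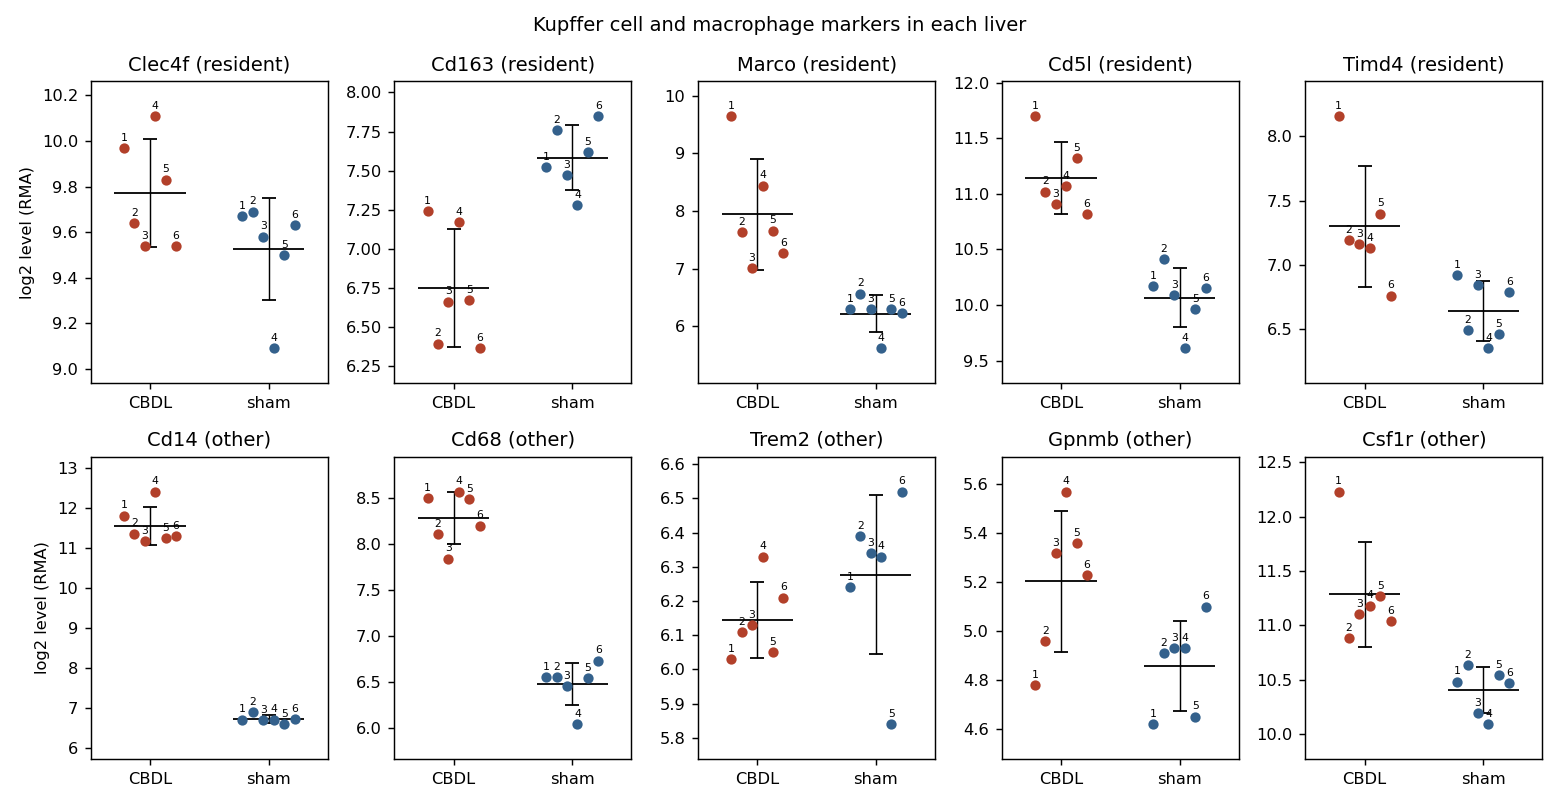
Level of each of the 10 markers in the 12 livers, as log2 values from robust multi-array average (vertical axis, its range differing between panels). Points are livers with their replicate number, lines are group means and bars SD (n = 6 each); Cd14, Cd68, Marco, Cd5l and Csf1r have every ligated liver above every sham, and Cd163 has every ligated liver below.

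Marco, a collagen-like scavenger receptor that binds bacteria, had the largest rise of the resident markers. Its log2 level had a median of 7.64 (range 7.01 to 9.65) in ligated livers and of 6.30 (5.62 to 6.57) in shams. All 6 ligated livers lay above all shams, and CBDL 1 lay far above the other ligated livers. The rise was 3.3-fold (log2 change 1.72, SE 0.36, adjusted p = 0.0019), and 1.45 on the log2 scale without CBDL 1 and sham 2. A second probe set of Marco gave 1.22 (SE 0.37, adjusted p = 0.0206).

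Cd5l, a protein that macrophages secrete and that inhibits their apoptosis, had a median of 11.05 (10.82 to 11.70) in ligated livers and of 10.12 (9.61 to 10.41) in shams. The groups did not overlap, and the spread within them was similar (SD 0.32 in ligated livers and 0.27 in shams). Cd5l rose 2.11-fold (log2 change 1.08, SE 0.15, adjusted p = 0.000105). Across all genes, groups failed to overlap in 20.0%, 11.9% with ligation higher and 8.04% with ligation lower. Of the 10 markers 6 had groups that did not overlap, 3 in each set.

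Timd4, the phosphatidylserine receptor by which resident macrophages bind dying cells, had a median of 7.17 (6.76 to 8.16) in ligated livers and of 6.64 (6.35 to 6.92) in shams. Here 5 of 6 ligated livers exceeded every sham, and CBDL 6 lay among the shams. Timd4 rose 1.58-fold (log2 change 0.66, SE 0.19, adjusted p = 0.013). Its change was 0.488 without CBDL 1, and 0.457 without CBDL 1 and sham 2 (adjusted p = 0.0176).

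Cd163, the scavenger receptor for haemoglobin bound to haptoglobin, went the other way. It had a median of 6.67 (6.36 to 7.24) in ligated livers and of 7.57 (7.28 to 7.85) in shams. Every ligated liver lay below every sham. Cd163 changed by -0.84 on the log2 scale (SE 0.16), 1.79-fold lower, with an adjusted p of 0.00096. CBDL 1 and CBDL 4, the ligated livers with the most Marco, had the highest Cd163 of their group.

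Clec4f, a lectin that in mice is restricted to Kupffer cells, had no change that passed. It had a median of 9.74 (9.54 to 10.11) in ligated livers and of 9.60 (9.09 to 9.69) in shams. The groups overlapped, and 3 of 6 ligated livers lay above all shams. The log2 change was 0.25 (SE 0.12, 95% interval -0.02 to 0.51, adjusted p = 0.118), a fold between 0.989 and 1.42. It was 0.160 without sham 4, whose level of 9.09 was the lowest of the 12.

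Among the recruited or activated markers Cd14 stood first. Cd14 is the coreceptor that hands bacterial lipopolysaccharide to Tlr4, and is made by monocytes and macrophages and, in mice given endotoxin, also by hepatocytes. It had a median of 11.32 (11.16 to 12.40) in ligated livers and of 6.71 (6.60 to 6.90) in shams. Even the lowest ligated liver lay more than 4 log2 units above the highest sham. The rise was 28.2-fold (log2 change 4.82, SE 0.18, 95% interval 4.44 to 5.19, adjusted p = 5.77e-10).

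Cd68, a glycoprotein of endosomes and lysosomes, had a median of 8.34 (7.84 to 8.57) in ligated livers and of 6.55 (6.04 to 6.73) in shams. The groups were clearly apart. Cd68 rose 3.5-fold (log2 change 1.81, SE 0.14, adjusted p = 3.52e-07).

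Csf1r, the receptor for the growth factors Csf1 and Il34 on which macrophages depend, had a median of 11.14 (10.88 to 12.23) in ligated livers and of 10.48 (10.09 to 10.63) in shams. The groups did not overlap, and CBDL 1 again lay well above the rest of its group. Csf1r rose 1.85-fold (log2 change 0.88, SE 0.19, adjusted p = 0.00234), and by 0.741 on the log2 scale without CBDL 1 and sham 2. The other probe sets gave 0.83 and 0.71, both with groups that did not overlap.

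Trem2, a lipid sensing receptor of macrophages in fatty and scarred tissue, did not pass the test. It had a median of 6.12 (6.03 to 6.33) in ligated livers and of 6.33 (5.84 to 6.52) in shams. The ligated livers lay within the range of the shams. The log2 change was -0.13 (SE 0.10, 95% interval -0.35 to 0.08, adjusted p = 0.302), a fold between 0.786 and 1.06, and the second probe set gave 0.09 (adjusted p = 0.519). Without sham 5, the lowest of its group, the change was -0.219 with an adjusted p of 0.0297.

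Gpnmb, a glycoprotein of lysosomes in lipid laden macrophages, passed narrowly from a low level. It had a median of 5.27 (4.78 to 5.57) in ligated livers and of 4.92 (4.62 to 5.10) in shams, and 4 of 6 ligated livers exceeded all shams. The rise was 1.27-fold (log2 change 0.34, SE 0.13, adjusted p = 0.0426). Both group means lay under 5.40, the 33rd percentile of all genes, where background sets the reading and a true fold cannot be given. The call was lost in 9 of 12 fits that left out 1 liver (adjusted p up to 0.09), and the second, dimmer probe set changed by -0.00 (adjusted p = 0.996).

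**Figure D2:**
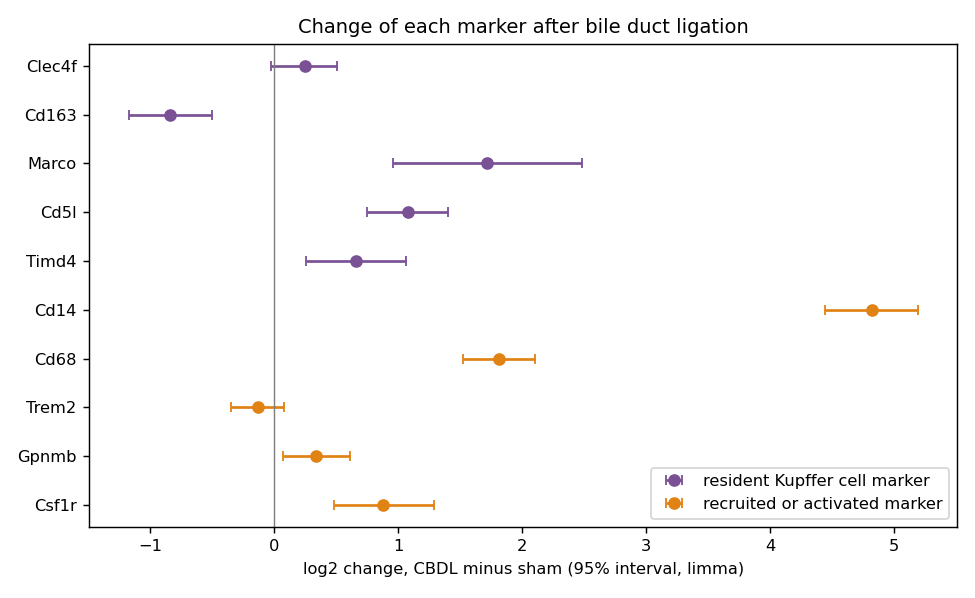
Log2 change of each marker, ligated minus sham (horizontal axis), with 95% intervals from limma over 12 livers. Cd14 stands alone at 4.82, Cd163 lies left of 0, and the intervals of Clec4f and Trem2 hold 0.

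Because Clec4f is the marker most specific to Kupffer cells, each other marker was also set against it within the same liver, 9 ratios in all. These ratios were added after the data, and the small change of Clec4f, had been seen. The changes of these ratios were compared by a 2-sided exact permutation test over the 12 livers, for which 0.00216 is the smallest p possible, and the p-values are not adjusted. Relative to Clec4f, Marco rose 2.78-fold and Cd5l 1.78-fold, and Cd163 was 2.12-fold lower (exact p = 0.00216 each). In none of these did the groups overlap. Cd14 (23.7-fold), Cd68 (2.95-fold) and Csf1r (1.56-fold) also rose relative to Clec4f, each with exact p = 0.00216. The same test on the levels of Cd163, Marco, Cd5l, Cd14, Cd68 and Csf1r alone also gave 0.00216 each. Since Clec4f changed little, the p-values of these ratios largely repeat that result and are not separate support.

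The resident markers thus changed unequally, also within single livers. The ratio of Cd163 to Clec4f fell by 0.80 to 1.31 log2 units in ligated livers, measured from the sham mean, while shams spanned -0.20 to 0.16. The ratio of Cd68 to Clec4f was the least variable of the raised ratios, at 1.35 to 1.70 in ligated livers and -0.10 to 0.15 in shams. For Timd4 the change relative to Clec4f was 0.41 (exact p = 0.0303), and 0.216 without CBDL 1 and sham 2 (exact p = 0.111). For Trem2 it was -0.38 (exact p = 0.0368), and -0.327 without these arrays (exact p = 0.103). For both genes 7 of the 12 tests that left out 1 liver had a p above 0.05 (up to 0.0801 for Timd4 and 0.0779 for Trem2). Gpnmb relative to Clec4f changed by 0.10 (exact p = 0.613).

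**Figure D3:**
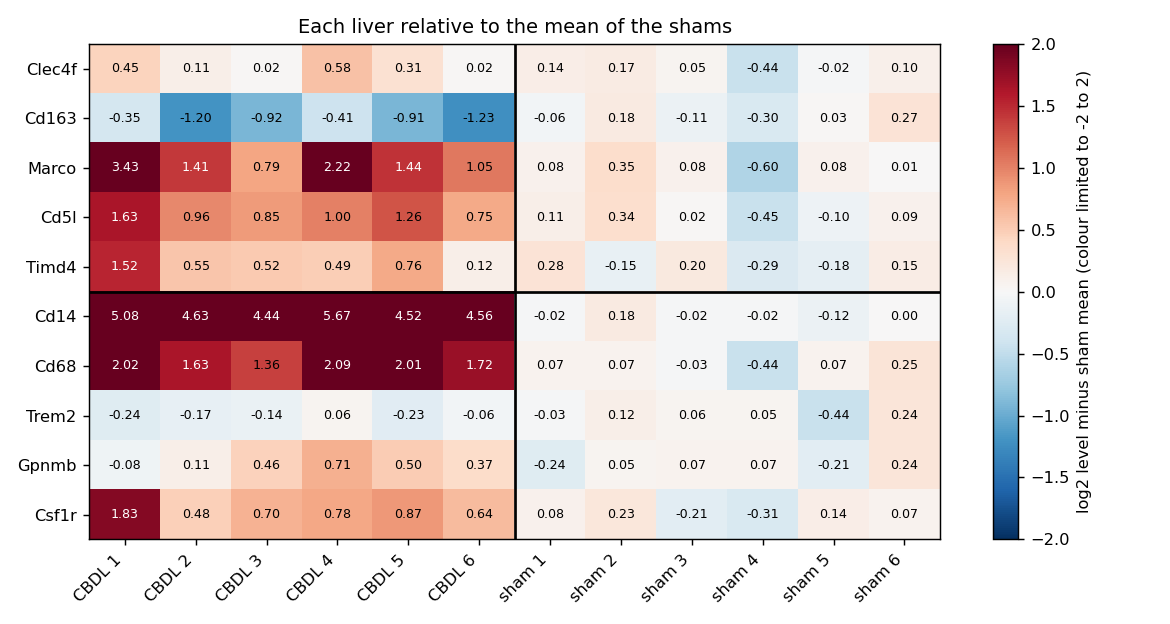
Log2 level of each marker in each liver minus the mean of the 6 shams (colour and printed value; colour stops at -2 and 2). CBDL 1 has the highest Marco (3.43), Cd5l (1.63), Timd4 (1.52) and Csf1r (1.83), whereas CBDL 4 has the highest Cd14 (5.67).

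Ligated livers differed in which markers were high. CBDL 1 had the highest level of its group for 5 markers, namely Marco, Cd5l, Timd4, Csf1r and Cd163. CBDL 4 had the highest level for the other 5, namely Cd14, Cd68, Clec4f, Trem2 and Gpnmb, while Trem2 and Gpnmb were lowest in CBDL 1. Among shams, sham 4 was the lowest for 7 of the 10 markers, Clec4f, Marco and Cd68 among them. Averaged over the 5 resident markers, the level relative to the sham mean was 0.14 to 1.34 in ligated livers and -0.42 to 0.18 in shams, where CBDL 6 lay below sham 2. Averaged over the other 5 it was 1.34 to 1.86 in ligated livers and -0.13 to 0.16 in shams, with Cd14 by far the largest contributor. In ligated livers Cd14 was 4.44 to 5.67, Cd68 1.36 to 2.09 and Csf1r 0.48 to 1.83. Gpnmb was -0.08 to 0.71 and Trem2 -0.24 to 0.06. The resident average in turn nets the fall of Cd163 against the rises. The 2 averages therefore do not show that the sets as a whole differed.

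To show which genes varied from liver to liver as the markers did, group means were removed over the 12 livers. Each marker was then correlated with the 12130 other genes above the dim range (12131 for Gpnmb, itself dim). These values are descriptions, and all genes share the same arrays. Clec4f was most like Cybb (r = 0.95), Cfp (0.93) and Vsig4 (0.93), which encode an oxidase subunit of phagocytes, properdin and a complement receptor of Kupffer cells. Without sham 4 and CBDL 3, the livers farthest from the median of Clec4f, these values were 0.89, 0.85 and 0.89. Csf1r was most like Tyrobp (0.97), the signalling adaptor of Trem2, Sting1 (0.97) and Cxcl13 (0.96). Without CBDL 1 and CBDL 2, the livers farthest from the median of Csf1r, these values were 0.88, 0.88 and 0.83.

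Cd5l was most like Ly9 (r = 0.94), Pirb (0.93) and C1qc (0.91), all genes of immune cells. Without CBDL 1 and sham 4 these values were 0.84, 0.86 and 0.79. Marco was most like Fxyd5 (0.95), the T cell gene Cd3d (0.95) and Cyba (0.94), and these fell to between 0.80 and 0.82 without CBDL 1 and CBDL 3. Cd68 had Clec4f among its 3 most similar genes (0.89, and 0.80 without CBDL 3 and sham 4). The nearest genes of Timd4 were Rab17 (0.93), Rac2 (0.93) and Slc13a5 (0.91). Those of Cd163 were Glipr2, Wfdc17 and Avil (0.91 each). Those of Trem2 were Dtna (0.92), Kap (0.92) and Dscaml1 (0.91), and of Gpnmb Smim5 (0.92), Dnal1 (0.90) and Tecr (0.90). For Timd4, Cd163, Trem2 and Gpnmb these values were 0.69 to 0.88 without the 2 farthest livers. For Cd14 the nearest genes were Hand1 (0.91), the cobalamin carrier Tcn2 (0.91) and plasminogen, Plg (0.90), which is made by hepatocytes. None of the 3 belongs to the macrophage lists used here. Without CBDL 4 and CBDL 3, the livers farthest from the median of Cd14, these values were 0.78, 0.85 and 0.81. Which cells carried the Cd14 RNA was not tested.

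Of 21 other measured genes of Kupffer cells 10 rose and 4 fell (median log2 change 0.28). These were 47.6% higher, against 20.5% of all genes, and 19% lower, against 21.1% of all genes, so that the share that fell was near that of all genes. Vsig4 rose 1.57-fold (0.65, SE 0.15, adjusted p = 0.00418), Slc40a1, the iron exporter ferroportin, by 0.58 (adjusted p = 5.69e-05), and Cd207, the lectin langerin, by 1.45 (adjusted p = 1.74e-05). Il18bp, a decoy for interleukin 18, and Abcc3, an efflux pump that hepatocytes also carry, rose by 0.95 and 0.98. The falls were of Hpgd (-0.84), Kcna2 (-0.33), Mrc1 (-0.32) and Siglec1 (-0.31). Mrc1 missed the threshold with arrays centred on their medians and in 8 of 12 fits that left out 1 liver. Among the rises, Clec1b (0.45) and Colec12 (0.38) each missed it in 7 of these 12 fits, and Sdc3 (0.41) in 2. Clec1b, Colec12, Sdc3 and Folr2 also missed it with quantile normalization. Mrc1 also stands on the list of sinusoidal endothelial markers below, so its fall is counted in both lists. The direction of Kcna2 depended on the probe set, since its other, dimmer ones gave -0.27, 0.44 and 0.53. For the Kupffer cell regulators Id3, Nr1h3 and Spic the log2 changes were 0.28, 0.08 and 0.05 (adjusted p = 0.292, 0.371 and 0.771), and a second, dimmer probe set of Spic gave 0.84. With quantile normalization 6 genes rose and 4 fell, and without CBDL 1 and sham 2 it was 9 and 4.

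Genes that macrophages of any origin carry were mostly higher. Of 22 measured genes 18 rose and 4 did not pass (median 0.93), so that 81.8% were higher, against 20.5% of all genes. Cybb, the catalytic subunit of the phagocyte oxidase, rose 11.4-fold, at 10.45 in ligated livers and 6.94 in shams (log2 change 3.51, adjusted p = 1.66e-08), and its other probe sets gave 3.47 and 3.73. Mpeg1, a pore-forming protein, rose by 2.14 and Laptm5, a lysosomal protein of blood cells, by 1.75, although other probe sets of Laptm5 gave -0.28 to 0.66. The complement genes C1qa, C1qb and C1qc rose by 0.97, 1.23 and 0.92. Adgre1, the F4/80 antigen, changed by 0.42 (SE 0.18, adjusted p = 0.0738). It was 0.24 without CBDL 1 and sham 2 (adjusted p = 0.16), 0.25 with quantile normalization (adjusted p = 0.304), and 0.48 with arrays centred on their medians, where it passed (adjusted p = 0.0478). Without those arrays the count of the list was again 18.

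Of 15 measured genes of monocytes and recruited cells 11 rose and 1 fell (median 0.88). That is 73.3% higher and 6.67% lower, beside 20.5% and 21.1% of all genes. Cx3cr1, a chemokine receptor of patrolling monocytes, rose by 1.19 from a dim level, with its other probe set at 0.24, and Chil3 and Ms4a6d, also dim in shams, rose by 1.70 and 1.69, with other probe sets of Ms4a6d at -0.06 and 1.59. Lyz1 rose by 1.66, but its near-identical neighbour Lyz2 may share signal with it, and its other probe sets gave 1.62 and, at a dim level, -0.07. The single fall depended on the probe set. Ccr2, the receptor that brings monocytes out of bone marrow, changed by -0.41 on its brightest probe set (6.36 in ligated livers and 6.77 in shams). The other 3 probe sets of Ccr2 gave 0.64, 0.64 and 2.66, and the last stood at 7.47 in ligated livers and 4.81 in shams (adjusted p = 7.78e-06).

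Of 21 measured genes of lipid-associated and scar-associated macrophages 16 rose and 1 fell (median 1.00), although Trem2 did not pass and Gpnmb passed narrowly. As shares, 76.2% were higher and 4.76% lower, beside 20.5% and 21.1% of all genes. The largest rises were of Lpl, lipoprotein lipase (3.19), Cd36, a fatty acid translocase (2.75), and Anxa5, which binds phosphatidylserine (2.71). Cd9, a tetraspanin, rose by 1.78 and Lgals3, galectin 3, by 2.07. Hepatocytes, biliary or mesenchymal cells also express many genes of this list. Of 8 measured cholangiocyte markers 5 rose, 62.5% against the 20.5% of all genes that rose. Among 12 stellate cell markers 3 rose, 25% against the same 20.5%. The share of these cells in the list was not tested.

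Partners of the markers were followed by pathway. In the endotoxin receptor pathway, next to Cd14, 5 of 13 measured genes rose and 1 fell (median 0.17), so that 46.2% were called, near the 41.6% of all genes. By direction 38.5% were higher and 7.69% lower, beside 20.5% and 21.1% of all genes. Ly96, the subunit that binds lipopolysaccharide on Tlr4, rose by 0.70 (adjusted p = 4.06e-05), Tlr2 by 1.43 and the inhibitor Irak3 by 1.60 from a dim level, with its other probe set at 0.02. Lbp, the plasma protein that loads Cd14, rose by 0.62 (adjusted p = 0.0244), a call that was lost without sham 1 or without sham 3. Tlr4 itself was dim and changed by 0.17 (adjusted p = 0.252), while another probe set gave 0.64 (adjusted p = 0.0237). With arrays centred on their medians 7 genes rose and Ticam1, the single fall, missed the threshold. Without CBDL 1 and sham 2 it was 4 and 0.

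On the CSF1 receptor axis 6 of 11 measured genes rose and 5 did not pass (median 0.35), so that 54.5% were higher, against 20.5% of all genes. Csf1, the main ligand, rose by 0.77 (adjusted p = 8.71e-05; other probe sets 0.07 to 0.58). The alternative ligand Il34 was dim and changed by 0.03 (adjusted p = 0.896). Csf2ra and Csf2rb, the chains of the receptor for granulocyte-macrophage growth factor, rose by 1.37 and 1.20, with the second, dim probe set of Csf2ra at 0.05. Spi1, the transcription factor PU.1, rose by 0.88. With quantile normalization 4 genes rose.

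On the TREM2 axis 6 of 14 measured genes rose and 2 fell (median 0.18). Thus 42.9% were higher and 14.3% lower, beside 20.5% and 21.1% of all genes. Tyrobp, the adaptor DAP12 through which Trem2 signals, rose 2.73-fold (log2 change 1.45, adjusted p = 6.74e-05). Clu, a lipoprotein component that Trem2 can bind and that hepatocytes make, rose by 0.69, and Adam10, a protease that sheds Trem2, by 0.87. Other probe sets of Adam10 gave 1.08, 0.22 and, at a dim level, -0.25 (adjusted p = 0.0338). The falls were of Treml1 (-0.61) and Treml2 (-0.25, other probe sets -0.16 to 0.06), relatives of Trem2. With quantile normalization 4 genes rose and 2 fell, and without CBDL 1 and sham 2 it was 5 and 2. Tyrobp also pairs with receptors of neutrophils and natural killer cells.

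Of 12 monocyte chemoattractants 4 rose and 8 did not pass (median 0.19), and these 33.3% called lie below the 41.6% of all genes. All of these calls were rises, and 33.3% lay above the 20.5% of all genes that rose. The rises were of Ccl2 (2.12, from a dim level), Cxcl10 (1.80), Csf1 and Ccl6 (0.73). With quantile normalization 5 rose and 2 fell, and without CBDL 1 and sham 2 it was 5 and 0. Markers of other cells were counted in the same way. Of 13 neutrophil markers 2 rose and 1 fell, 23.1% called against 41.6% of all genes. The rises were of S100a8 (2.22) and Lcn2 (4.56), which hepatocytes also make, and without CBDL 1 and sham 2 it was 3 and 2. Of 12 lymphocyte markers 4 fell and 8 did not pass, so that 33.3% were lower, against 21.1% of all genes. Without CBDL 1 and sham 2, 1 rose and 6 fell, and with arrays centred on their medians 2 fell. Of these 12 markers 7 were dim, and among the falls Cd79a and Ms4a1 were dim in shams. The call of Cd4 was lost in 8 of 12 fits that left out 1 liver, and that of Ms4a1 in 5. Of 12 dendritic cell markers 5 rose, 4 of them genes of MHC class II presentation that macrophages share. The 41.7% called were near the 41.6% of all genes, although all were rises, against 20.5% of all genes. Without CBDL 1 and sham 2, 4 rose. Of 8 markers of peritoneal macrophages, which can carry Timd4 and Marco, 4 rose and 1 fell, against 3 and 0 with quantile normalization. In shares, 50% were higher and 12.5% lower, beside 20.5% and 21.1% of all genes. Gata6 stood at 7.69 in ligated livers and 7.17 in shams, but its other probe sets changed by 0.31 and -0.46, and with quantile normalization its change was 0.32 (adjusted p = 0.0982). Of 12 markers of sinusoidal endothelium 10 fell and 1 rose, so that 83.3% were lower, against 21.1% of all genes. With arrays centred on their medians 8 fell, and Stab1 and Mrc1 missed the threshold. Among 14 intestinal markers 2 fell and 12 did not pass (median -0.82), and without CBDL 1 and sham 2 it was 1 that rose and 4 that fell (median -0.18). With all arrays the share that fell was 14.3%, below the 21.1% of all genes.

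**Figure D4:**
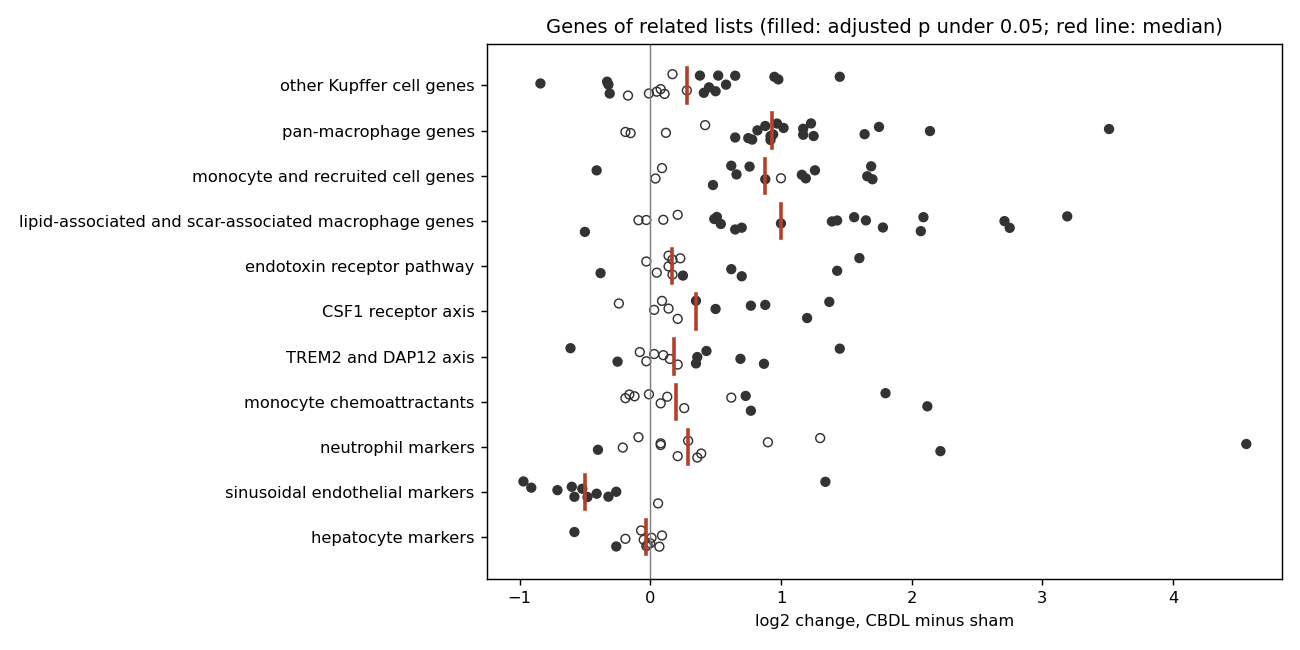
Log2 change, ligated minus sham (horizontal axis), of each measured gene of 11 related lists; filled points passed an adjusted p of 0.05 and the red line is the list median. Pan-macrophage genes (median 0.93) and lipid-associated genes (1.00) lie mostly to the right, other Kupffer cell genes (0.28) on both sides, and sinusoidal endothelial markers (-0.50) mostly to the left.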

How the data were processed

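The authors deposited log2 levels for each probe set. They used RMA (robust multi-array average), as the submitters' processing notes state without a version. RMA corrects background, quantile-normalizes arrays and summarises probes, so that levels are relative within this set of arrays. The alternative called quantile normalization was a further normalization of these deposited levels. The table has no detection calls, and precision is limited by how many arrays there are. Gene names came from the annotation of the platform: of 45101 probe sets, 64 were controls and 34945 had 1 gene symbol. The probe set with the highest mean stood for a gene, giving 18193 genes. No dim genes were left out.

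Tests used limma 3.58.1 in R 4.3.3 (lmFit, eBayes, 2-sided) on 12 arrays, with Benjamini-Hochberg adjustment over all genes and 13.9 total degrees of freedom. The fit was tested on simulated data. Groups came from the sample titles. Members and lists were chosen with earlier results of these data known. The text names all 10 members, and of each list the largest changes past the threshold without overlap, plus fixed genes and, chosen after their values were seen, genes that fell or disagreed between probe sets. Likeness used within-group deviations. The ratios to Clec4f were added after the data were seen. Alternatives were other scalings, filters, probe set rules, variance models, a replicate block, and livers left out. The HepaRG values were not used.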

Additional observations from a re-analysis of the deposited data

Results flagged for a closer look

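In 3 of 20 group and marker combinations, 1 liver lay far from the others of its group, with a gap past Dixon's 95% critical value; chance alone would give about 1 in 20. Csf1r in CBDL 1 was 12.23, with the next ligated liver at 11.27. Clec4f in sham 4 was 9.09, with the next sham at 9.50. Marco in sham 4 was 5.62, with the next sham at 6.23.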

How the results depend on the processing

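Clec4f, Cd163, Marco, Cd5l, Timd4, Cd14, Cd68 and Csf1r kept their direction and their side of the threshold in all 22 alternatives run for each. Gpnmb did so in 11 of 21: its change was 0.171 with the mean of its probe sets (adjusted p = 0.0572) and 0.270 to 0.427 with 1 liver left out, and the filter on dim genes removed it. Trem2 did so in 21 of 22, at -0.219 to -0.084 with 1 liver left out, and 1 to 2 members were then lower. Over all genes, 3731 were higher and 3838 lower. With arrays centred on their medians 4328 were higher and 2452 lower (63.8% higher against 49.3%), with quantile normalization 2959 and 4263 (41% higher), and without dim genes 2441 were lower. With every probe set as its own row, which tests more rows, 6047 were higher and 6402 lower. With the replicate number as a block 3387 were higher and 3163 lower, and no call of a member changed. Same-numbered livers deviated together with correlations of -0.22 to 0.09, and 0 of 6 ligated livers correlated best with the sham of its own number, so the numbers were not used as pairs. The choice of probe set changed the direction of Ccr2 (-0.41 against 0.64 to 2.66), Laptm5 (1.75 against -0.28 to 0.66), Adam10 (0.87 against -0.25 to 1.08) and others, bright genes among them, and levels under 5.40 are limited by background. Other causes were not tested.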
